A study of Mus musculus with 2 samples.

Results

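Chemokines are small secreted proteins that guide leukocytes through tissue, and this report describes the 54 genes for chemokines and their receptors on the array, 35 ligands and 19 receptors, in newborn skin with and without *Pnpla1*. They were chosen by name alone, as every gene on the array whose whole symbol fits a rule. The symbol is Ccl, Cxcl, Ccr or Cxcr followed by a number and at most 1 letter, or is *Cx3cl1*, *Cx3cr1*, *Xcl1* or *Xcr1*. They make up 54 of the 30193 genes on the array. All 54 symbols stand in the RefSeq gene table, and 1 of them has a newer name there, *Cxcr7*, now called *Ackr3*.

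Chemokines fall into CC, CXC, CX3C and XC groups by the spacing of their conserved cysteines, and they act on receptors of the 7-transmembrane, G protein-coupled kind on the cells that they attract. CXC chemokines with a Glu-Leu-Arg motif act on *Cxcr2* and attract neutrophils, those induced by interferon act on *Cxcr3*, and many CC chemokines attract monocytes, dendritic cells, eosinophils or lymphocytes. In skin, some chemokines, such as *Ccl27a*, *Cxcl12* and *Cxcl14*, are made without inflammation, while others are induced in keratinocytes, fibroblasts, endothelium and leukocytes when the tissue is injured or inflamed.

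The study compared skin of *Pnpla1*+/+ and *Pnpla1*-/- mice to ask what the loss of PNPLA1, an enzyme of acylceramide synthesis in the outer epidermis, does to the skin. Total RNA from P0 newborns, that is at day 0 after birth, on the C57BL/6N background was pooled from 6 animals per genotype, labelled with 1 dye (Cy3) and hybridized to 1 Agilent oligonucleotide array per genotype. The knockout mice were homozygous for a knockout-first allele of *Pnpla1* made in C57BL/6N embryonic stem cells, from which flippase had removed the IRES-LacZ and Neo cassettes, and the wild-type mice were littermates. The allele was present in every cell of the body, so that the leukocytes and blood vessels of the skin carried it as well as the keratinocytes.

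With 1 array per genotype there was no replicate of either group. No test between the genotypes could be made, and every difference below compares 2 pools of RNA. Each difference is the log2 of the intensity in *Pnpla1*-/- skin minus that in *Pnpla1*+/+ skin, after each intensity was divided by the 75th percentile of its own array (2108 for *Pnpla1*+/+ and 1734 for *Pnpla1*-/-). A gene was taken as measured where the scanner software called its spot well above background. A gene measured on only 1 array has a bound, given as at least N-fold. It was computed against the lowest signal well above background on the other array (23.9 for *Pnpla1*+/+ and 21.7 for *Pnpla1*-/-). Where the dim spot's own signal was higher, that signal was used. Some spots above that lowest signal were not called well above background, such as *Cxcr1* at 24.8 in *Pnpla1*+/+ skin. These bounds are therefore not strict limits. No spot was saturated, and 71.7% of spots on the *Pnpla1*+/+ array and 73.3% on the *Pnpla1*-/- array were well above background.

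The targeted gene was lower in the knockout pool. The *Pnpla1* probe, at chr17:29026908-29026967 (mm9), read 579 in *Pnpla1*+/+ and 114 in *Pnpla1*-/- skin, a difference of -2.07 or 4.19-fold lower, and it was well above background on both arrays. Whether this probe lies in the deleted part of the gene is not given in the sources used here.

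The labels name the tissue skin, while the design text of the series speaks of epidermis. Markers of several layers were bright on both arrays. *Krt10*, a keratin of the suprabasal epidermis, read 277989 and 262540 in *Pnpla1*+/+ and *Pnpla1*-/- skin, *Col1a2*, a collagen of fibroblasts, read 275482 and 201776, and *Acta1*, the actin of skeletal muscle, read 143228 and 121934. The RNA therefore held transcripts of dermis and muscle as well as of epidermis, and the tissue is named skin below, after the labels. In such bulk RNA, fewer cells of a type and less RNA per cell cannot be told apart.

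Chemokine and receptor transcripts were higher in *Pnpla1*-/- skin more often than lower. By the probe that represents each gene, 38 of the 54 genes were measured on both arrays, 6 only in *Pnpla1*-/- skin, 1 only in *Pnpla1*+/+ skin and 9 on neither. Of the 45 genes with a difference or a bound, 24 were at least 2-fold higher in *Pnpla1*-/- skin, where 6.7% of the 22400 genes with a difference or a bound were. Another 3 were at least 2-fold lower, where 3.04% of all such genes were, and the other 18 had a difference or a bound under 2-fold. Among those 18, *Ccl1*, *Ccr6* and *Xcl1* have only bounds, which do not show that they lay within 2-fold. The median difference of the 45 genes was 1.14, beside a median of 0.00 over all genes. Genes that were measured only in *Pnpla1*-/- skin entered these counts because they were bright there, so that the counts describe the 45 genes and not all 54.

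Both ligands and receptors were more often higher than lower. Among the ligands, 29 of 35 had a difference or a bound, 16 were higher by 2-fold or more and 2 lower by as much, and the median was 1.18 (range -1.52 to 5.19). Among the receptors, 16 of 19 had one, 8 were higher by 2-fold or more and 1 lower by as much, and the median was 0.94 (range -1.98 to 5.90). With bounds left out, only probes above background on both arrays counted. By these, 5 of 12 receptors were higher by 2-fold or more, with a median of 0.65. Among the ligands 15 of 26 were, beside 1170 of 20708 genes in all. Centring the arrays on the added E1A spike-in RNA in place of the 75th percentile lowers every difference by 0.43. It left 18 chemokine and receptor genes past 2-fold on the higher side and 5 on the lower. Of all 22197 genes with a difference or a bound at that setting, 828 were past 2-fold on the higher side and 2180 on the lower. Among all genes the same step turned the balance, so that 27.5% of the genes past 2-fold were higher in *Pnpla1*-/- skin instead of 68.8%.

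**Figure D1:**
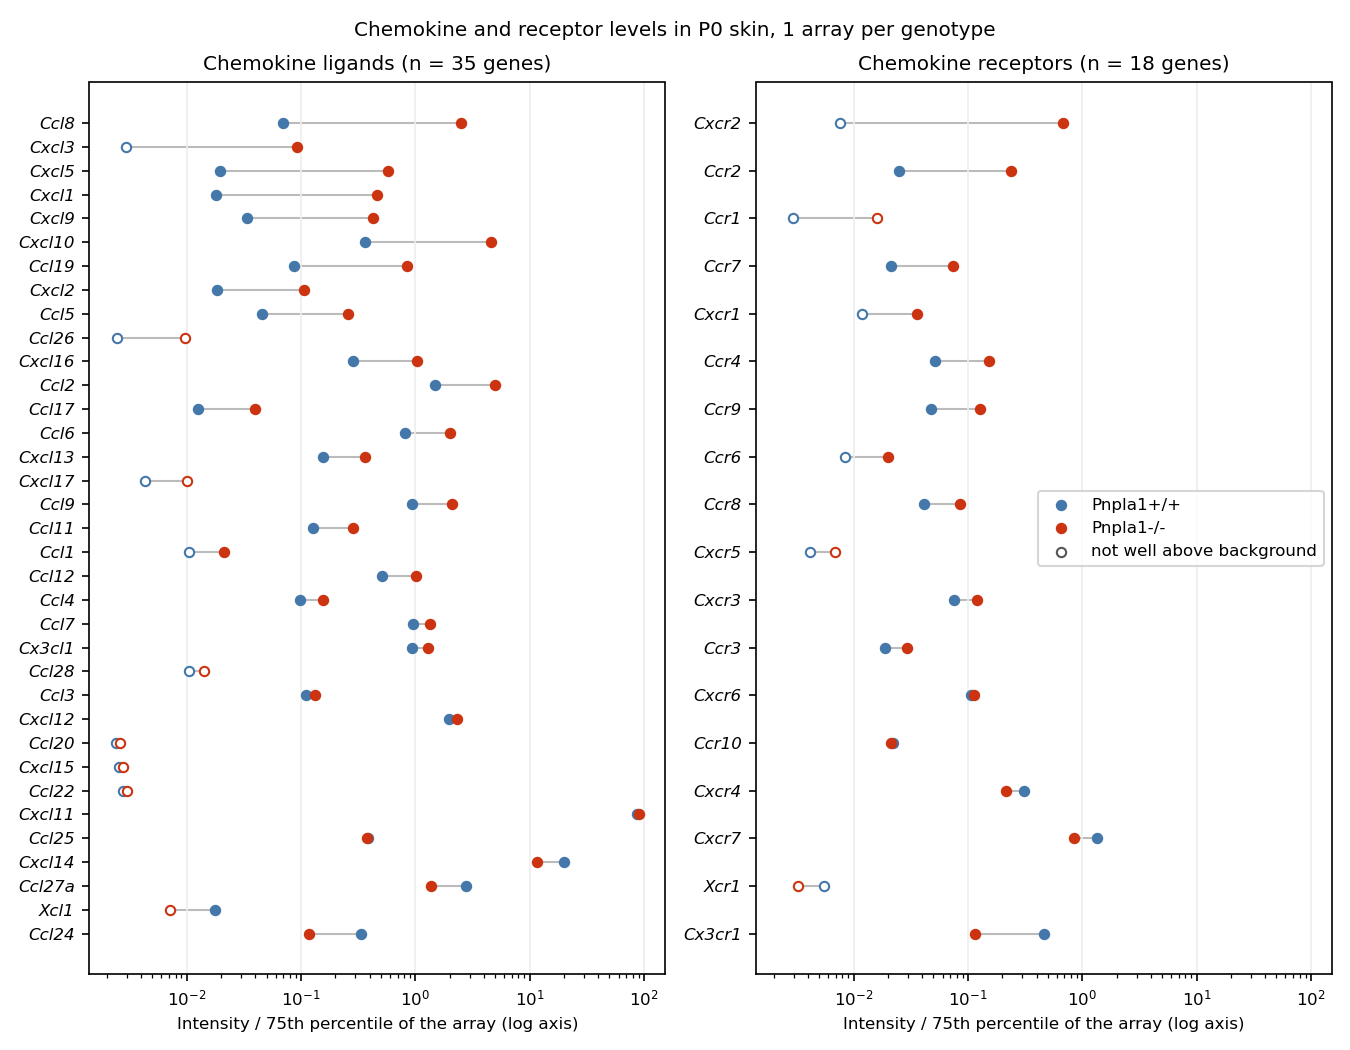
Intensity of 35 chemokine ligands (left) and 18 of the 19 receptors (right) divided by the 75th percentile of its array, on a log axis, in Pnpla1+/+ (blue) and Pnpla1-/- skin (red), 1 array per genotype, with open circles for spots not well above background. Ccl8 and Cxcr2 stand at the top of the panels, with intensities of 146 and 4384 and of 16.0 and 1177, and Ccl24 and Cx3cr1 stand at the bottom with the knockout to the left.

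The noise of the array itself was small beside most of these differences. Probes that were spotted at least 8 times on the array had a median SD of the difference of 0.039 on the log2 scale over 305 probes, and of 0.15 over the 50 of them with a mean intensity below 200. *Ccl2*, the main chemokine for monocytes, was the member gene with repeated spots. Its 10 spots read from 2934 to 3330 (median 3178) in *Pnpla1*+/+ and from 8054 to 9382 (median 8553) in *Pnpla1*-/- skin, with no overlap, and their differences ran from 1.69 to 1.78. These values cover the reading of the array only, and not the spread between mice or between hybridizations.

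The ligands and the receptor of neutrophil recruitment showed some of the widest gaps. *Cxcl1*, *Cxcl2*, *Cxcl3* and *Cxcl5* encode chemokines that act on *Cxcr2*, and all 4 genes were at least 2-fold higher in *Pnpla1*-/- skin, with a median of 3.85. *Cxcl1*, *Cxcl2* and *Cxcl3* are neighbours of common descent, and the promoter sequences below are shown because a motif of the NF-kB type recurred in them. They are the strands of the gene from RefSeq (GRCm38.p6), 5′ to 3′, and each ends at the base before the transcription start. Capitals mark matches to GGNNTTTCC (NF-kB type) on either strand.

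Cxcl1, chr5:90891135-90891244, plus strand: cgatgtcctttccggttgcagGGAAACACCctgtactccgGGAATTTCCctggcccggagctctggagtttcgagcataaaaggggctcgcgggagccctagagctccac
Cxcl2, chr5:90903789-90903898, plus strand: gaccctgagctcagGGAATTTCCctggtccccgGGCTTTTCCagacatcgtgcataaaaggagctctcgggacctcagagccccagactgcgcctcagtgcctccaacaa
Cxcl3, chr5:90785991-90786100, plus strand: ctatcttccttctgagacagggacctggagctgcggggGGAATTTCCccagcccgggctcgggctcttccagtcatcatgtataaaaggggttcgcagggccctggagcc

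*Cxcl1* read 38.0 in *Pnpla1*+/+ and 801 in *Pnpla1*-/- skin, a difference of 4.68 or 25.7-fold higher. *Cxcl5* read 41.0 and 1003, a difference of 4.90 or 29.8-fold higher. *Cxcl2* read 39.2 and 184, a difference of 2.51 or 5.70-fold higher. All 3 were dim but above background in *Pnpla1*+/+ skin. *Cxcl3* was not well above background there (6.24) and read 159 in *Pnpla1*-/- skin, at least 8.07-fold higher. *Cxcl15*, a lung chemokine of the same group, was not well above background in either pool.

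*Cxcr2*, the receptor of these ligands on neutrophils, had the largest difference or bound among the receptors. It read 16.0 in *Pnpla1*+/+ skin, not well above background, and 1177 in *Pnpla1*-/- skin, at least 59.8-fold higher. *Cxcr1*, its close relative, read 24.8, not well above background, and 62.5, at least 3.06-fold higher. Both receptors were thus measured only in the knockout pool. Normexp background correction, which adds an offset of 50, lowered the median of the *Cxcr2* ligands from 3.85 to 2.42. It gave 3.31 for *Cxcl1*, 3.74 for *Cxcl5*, 1.36 for *Cxcl2* and 1.54 for *Cxcl3*. It lowered *Cxcr2* from 5.90 to 4.31 and took *Cxcr1* below 2-fold (0.82), so that the bounds hold for the processed signal only.

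*Cxcl1* had matches 89 and 70 bases before the transcription start, *Cxcl2* 96 and 77 bases before it, and *Cxcl3* 72 bases before it. The match GGAATTTCC was the same 9 letters in all 3 promoters. Promoter windows of 250 bases before to 50 bases after the start were at hand for 39 of the 54 genes, 17 of them among the 24 genes that were at least 2-fold higher. None was at hand for *Cxcl5*, so that its promoter was not searched. The motif was found in 6 of these 17 (35.3%: *Ccl9*, *Cxcl1*, *Cxcl2*, *Cxcl3*, *Cxcl9* and *Cxcl10*), in 2 of the other 22 (*Ccl20* and *Ccr3*), and in 5.82% of 32851 promoters of the genome. Promoters with at least 2 matches, as in *Cxcl1*, *Cxcl2* and *Cxcl9*, were 0.253% of all promoters. *Cxcl1*, *Cxcl2* and *Cxcl3* share ancestry, so that their matches are not separate cases, and a match of letters is not a site at which a factor was seen to bind.

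*Cxcl9* and *Cxcl10*, chemokines induced by interferon which attract T cells and NK cells through *Cxcr3*, were higher in *Pnpla1*-/- skin by every probe and setting. Their promoters are shown because each carried an interferon type motif besides the NF-kB type. Here capitals mark GGNNTTTCC, TGANTCA (AP-1, the same letters on both strands) and GAAANNGAA (interferon type), each on either strand.

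Cxcl9, chr5:92328080-92328279, minus strand: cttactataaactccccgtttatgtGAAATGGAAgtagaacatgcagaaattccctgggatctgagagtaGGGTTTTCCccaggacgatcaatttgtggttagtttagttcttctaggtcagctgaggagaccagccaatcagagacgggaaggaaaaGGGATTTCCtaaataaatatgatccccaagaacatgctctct
Cxcl10, chr5:92348890-92349109, minus strand: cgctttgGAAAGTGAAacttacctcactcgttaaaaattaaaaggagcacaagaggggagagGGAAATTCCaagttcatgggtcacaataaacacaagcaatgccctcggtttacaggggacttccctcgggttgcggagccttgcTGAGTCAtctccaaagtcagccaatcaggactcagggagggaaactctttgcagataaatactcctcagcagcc

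*Cxcl9* read 70.7 in *Pnpla1*+/+ and 744 in *Pnpla1*-/- skin, a difference of 3.68 or 12.8-fold higher. Its other probe read 57.9 and 350, a difference of 2.88. *Cxcl10* read 769 and 7903, a difference of 3.64 or 12.5-fold higher. The other probe of *Cxcl10* was well above background only in *Pnpla1*-/- skin, and both genes therefore pointed the same way by both of their probes. *Cxcl9* was 2.90 with normexp correction and *Cxcl10* was 2.53 with the mean over its probes. *Cxcl11* read 185259 and 156815, a difference of 0.04, and its other probe gave -0.09. The brighter probe stood at 87.9 and 90.4 times the 75th percentile of its array, and whether it reads transcripts of *Cxcl11* alone was not tested, so that no statement on the expression of *Cxcl11* is drawn from it. The sign of the *Cxcl11* probe value turned with the scaling (-0.39 with the spike-in centring), and it lay within 2-fold under all settings. *Cxcr3*, the receptor, read 161 and 209, a difference of 0.66.

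The interferon type motif was found in 5 of the 17 promoters of genes at least 2-fold higher (*Ccl19*, *Ccr2*, *Cxcl9*, *Cxcl10* and *Cxcr1*), in 3 of the other 22 and in 8.56% of all promoters. In *Cxcl9* it lay 175 and in *Cxcl10* 213 bases before the start. The AP-1 motif was found in 4 of the 17 (*Ccl9*, *Ccr4*, *Cxcl9* and *Cxcl10*), in 3 of the other 22 and in 7.81% of all promoters. The AP-1 match of *Cxcl9* lay after the start and outside the stretch shown.

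*Ccl8* had the largest difference of any ligand. It encodes a chemokine that acts on *Ccr8* in the mouse, and it read 146 in *Pnpla1*+/+ and 4384 in *Pnpla1*-/- skin, a difference of 5.19 or 36.4-fold higher, and 4.59 with normexp correction. *Ccr8*, found on some T cells, read 87.7 and 149, a difference of 1.05. Among the genes past 2-fold on the higher side, this receptor lay nearest to the line. It fell below 2-fold in 7 of the 12 alternative ways of scaling, filtering or correcting the values. *Ccl1*, the other ligand of *Ccr8*, was near background, and its probes disagreed. The probe that represents it read 22.2, not well above background, and 36.6, while the other read 37.7 and 9.30, the latter not well above background, so that no direction is given for *Ccl1*.

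Of *Ccr2* and its 3 ligands, the receptor and *Ccl2* were at least 2-fold higher in *Pnpla1*-/- skin. *Ccr2*, the receptor that brings monocytes out of the blood, read 52.5 in *Pnpla1*+/+ and 417 in *Pnpla1*-/- skin, a difference of 3.27 or 9.67-fold higher that normexp correction lowered to 2.18. Its ligand *Ccl2* averaged 3145 and 8614, a difference of 1.74 or 3.33-fold higher. *Ccl12* and *Ccl7*, which act on the same receptor, stood closer together in the 2 genotypes. *Ccl12* read 1069 and 1754, a difference just short of 2-fold (1.99-fold), and *Ccl7* read 2021 and 2342, a difference of 0.49.

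*Ccl3*, *Ccl4*, *Ccl5*, *Ccl6* and *Ccl9* belong to another group of CC chemokines, which attract monocytes, macrophages and T cells. *Ccr1*, a receptor of this group, was not well above background in either pool. Among the 5 ligands, 3 were at least 2-fold higher and the median was 1.18. *Ccl5*, a chemokine of activated T cells and macrophages, read 95.8 in *Pnpla1*+/+ and 445 in *Pnpla1*-/- skin, a difference of 2.50 or 5.65-fold higher. *Ccl6* read 1704 and 3460, a difference of 1.30, and *Ccl9* read 1973 and 3671, a difference of 1.18. Both are chemokines of mouse myeloid cells, and both fell below 2-fold in at least 1 alternative. *Ccl3* and *Ccl4*, made by activated macrophages, lay within 2-fold. *Ccl3* read 232 in both pools before scaling, a difference of 0.28 that turned to -0.15 with the spike-in centring, and *Ccl4* read 205 and 272, a difference of 0.69.

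Genes of dendritic cell and lymphocyte traffic were also among those that were higher. *Ccl19*, which leads mature dendritic cells and naive T cells by way of *Ccr7*, read 185 in *Pnpla1*+/+ and 1468 in *Pnpla1*-/- skin, a difference of 3.27 or 9.65-fold higher. Its other probes gave smaller differences, 1.78 (237 and 670) and 1.82 (169 and 491), in the same direction, and the mean over its probes was 2.29. *Ccr7* read 44.8 and 127, a difference of 1.79 or 3.46-fold higher that normexp correction lowered to 1.01, so that ligand and receptor were both higher in the knockout pool.

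*Ccr4* is a receptor of skin-homing and type 2 helper T cells. It read 109 in *Pnpla1*+/+ and 265 in *Pnpla1*-/- skin, a difference of 1.56. Its ligand *Ccl17* read 26.7 and 68.5, a difference of 1.64 that normexp correction lowered to 0.81, and its other ligand *Ccl22* was not well above background in either pool. *Ccr9*, a receptor of thymocytes and gut-homing T cells, read 99.6 and 220, a difference of 1.42. Its ligand *Ccl25* did not follow, with 818 and 655 and a difference of -0.04 whose sign turned with the scaling. *Ccr6* read 17.7, not well above background, and 34.8, at least 1.77-fold higher, and its ligand *Ccl20* was not well above background in either pool.

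*Cxcl13*, the B cell chemokine, read 329 in *Pnpla1*+/+ and 630 in *Pnpla1*-/- skin, a difference of 1.22. Its receptor *Cxcr5* was not well above background in either pool. *Cxcl16*, a membrane-bound chemokine of macrophages and dendritic cells, read 597 and 1803, a difference of 1.88 or 3.67-fold higher. *Cxcr6*, the receptor for it, read 225 and 196, a difference of 0.08 whose sign turned with the scaling. For neither of these pairs was the receptor seen to be higher with its ligand.

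The eosinophil chemokines pointed in opposite directions. *Ccl11*, or eotaxin, read 270 in *Pnpla1*+/+ and 491 in *Pnpla1*-/- skin, a difference of 1.14, while *Ccl24*, also an eotaxin, read 704 and 202, a difference of -1.52 or 2.86-fold lower. *Ccr3*, their receptor, read 39.8 and 50.9, a difference of 0.64, and *Ccl26* was not well above background in either pool. *Ccl24* was at least 2-fold lower under all 12 alternatives, and *Ccl11* dropped below 2-fold in 2 of them.

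*Ccl27a* and *Cxcl14*, chemokines of the epidermis, were lower in *Pnpla1*-/- skin, the former by just over 2-fold. *Ccl27a*, the keratinocyte chemokine for skin-homing T cells, read 5910 in *Pnpla1*+/+ and 2360 in *Pnpla1*-/- skin, a difference of -1.04 or 2.06-fold lower. Its other probes gave -1.19 and -0.69, and averaging the probes left it just under 2-fold (-0.98). Its receptor *Ccr10* read 46.6 and 36.9, a difference of -0.05, and *Ccl28*, a ligand of *Ccr10* in mucosal tissue, was not well above background in either pool. *Cxcl14*, an epidermal chemokine whose receptor is not settled, read 42575 and 20183, a difference of -0.79 or 1.73-fold lower. This difference passed 2-fold with no scaling and with the spike-in centring (-1.23). *Cxcl17*, a mucosal chemokine, was not well above background in either pool.

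*Cxcl12*, a chemokine of dermal fibroblasts and endothelium, lay within 2-fold. It read 4178 in *Pnpla1*+/+ and 4047 in *Pnpla1*-/- skin, a difference of 0.24, and its other probe gave -0.11. *Cxcr4*, its signalling receptor, read 659 and 377, a difference of -0.52, and *Cxcr7*, a scavenger receptor for it, read 2860 and 1459, a difference of -0.69. Both receptors were lower in the knockout pool under every alternative, by less than 2-fold except for *Cxcr7* with the spike-in centring (-1.12). *Ccl21a*, a further ligand of *Ccr7*, was not analysed here.

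*Cx3cr1* was the receptor that was at least 2-fold lower. It is the fractalkine receptor of monocytes and tissue macrophages, and it read 973 in *Pnpla1*+/+ and 202 in *Pnpla1*-/- skin, a difference of -1.98 or 3.96-fold lower. Its other probes read 959 and 176 and 132 and 27.4, with differences of -2.16 and -1.98, although 2 of the 3 probes overlap by 55 bases. *Cx3cl1*, or fractalkine, the membrane-bound ligand, read 1956 and 2249, a difference of 0.48. *Cx3cr1* thus ran opposite to *Ccr2*, also a receptor of monocytes. *Xcl1*, a chemokine of NK cells and activated T cells, was measured only in *Pnpla1*+/+ skin, with 37.7 against 12.4, at least 1.43-fold lower in *Pnpla1*-/- skin, and its receptor *Xcr1* was not well above background in either pool.

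**Figure D2:**
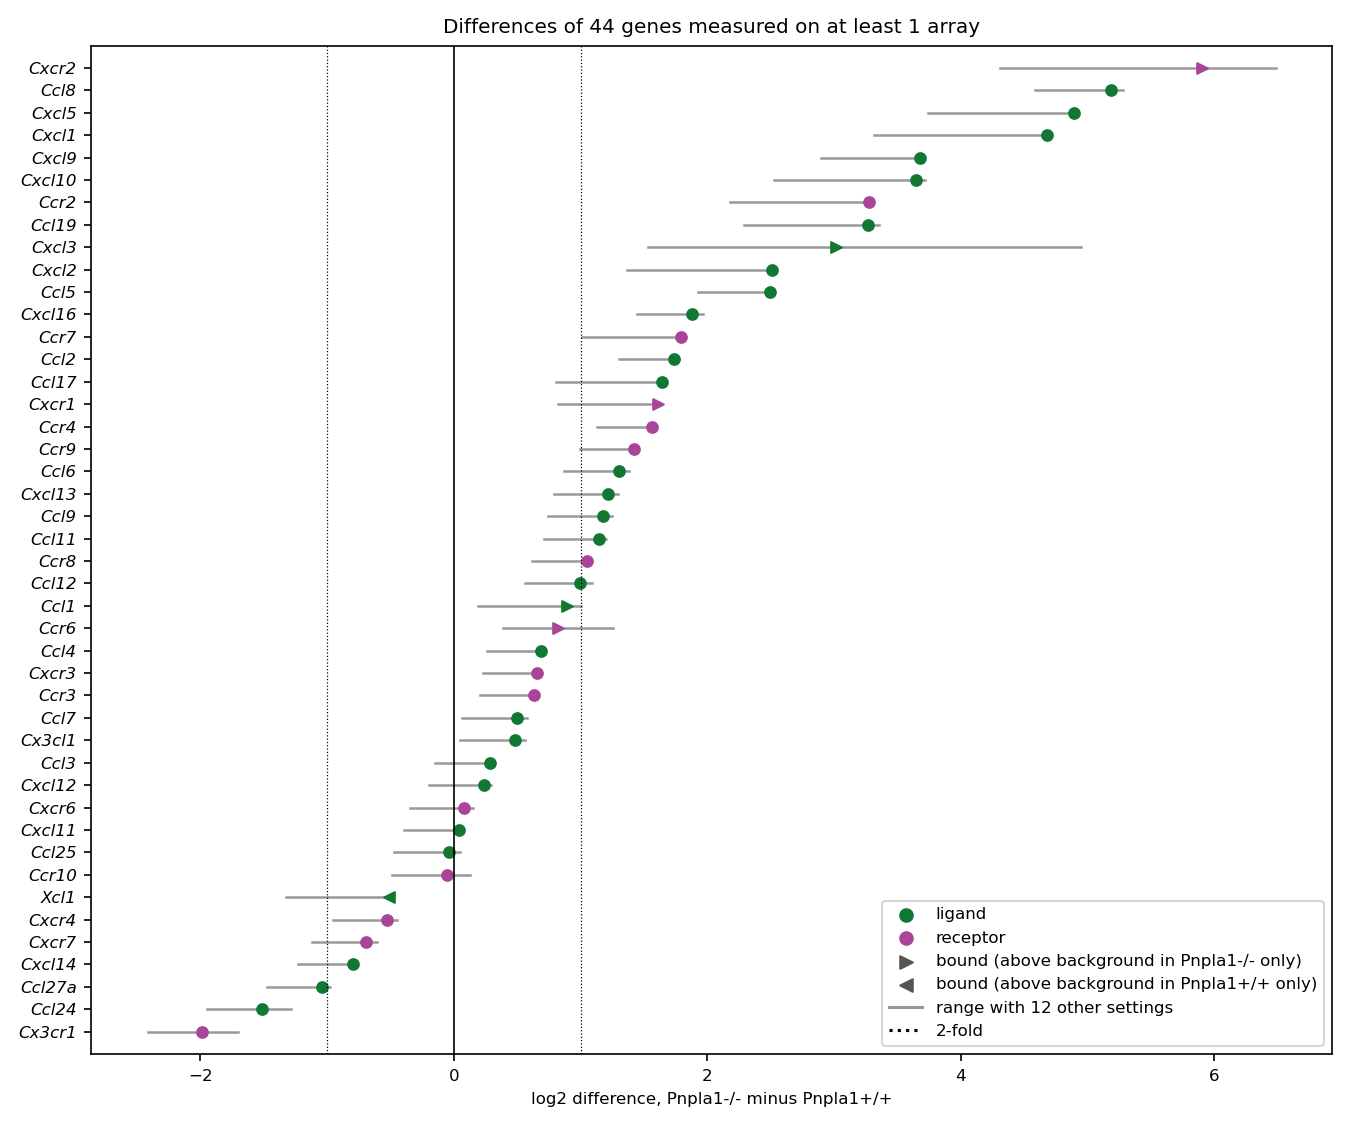
Difference in log2 intensity, Pnpla1-/- minus Pnpla1+/+, of 44 of the 45 genes measured on at least 1 array, with ligands in green, receptors in purple, triangles for bounds, dotted lines at 2-fold and grey bars for the range over 12 other ways of scaling, filtering or correcting the values. Of the 27 genes past 2-fold, 18 stayed past it under all of these settings, and the bars of Cxcl3 (1.54 to 4.95) and Cxcr2 (4.31 to 6.49) are the longest, for genes whose wild-type signals were not well above background.

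Many chemokine genes lie in clusters, and neighbours did not always have like values. All positions here are those of the probes on mm9. In the cluster at chr5:91190490-91334593, which holds *Cxcl5*, *Cxcl3*, *Cxcl15*, *Cxcl1* and *Cxcl2*, each of the 4 genes with a difference or a bound was at least 2-fold higher. At chr5:92752191-92788626, *Cxcl9* and *Cxcl10* were both higher, and the probe of *Cxcl11*, of which the specificity was not tested, read 0.04.

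The CC clusters of chromosome 11 were mixed. At chr11:81850650-81990510, 3 of 6 genes were at least 2-fold higher (*Ccl2*, *Ccl11* and *Ccl8*). Their median was 1.07, and they ranged from 0.49 for *Ccl7* to 5.19 for *Ccl8*. At chr11:83339296-83478111, 3 of 5 genes were (*Ccl5*, *Ccl9* and *Ccl6*), with a median of 1.18. At chr8:97274709-97335829, *Ccl17* was at least 2-fold higher, *Cx3cl1* was not, and *Ccl22* was not measured. Among receptor genes that lie near each other on chromosome 9, *Ccr9* and *Ccr2* were at least 2-fold higher, *Cxcr6* and *Ccr3* were not, and *Xcr1* and *Ccr1* were not measured.

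**Figure D3:**
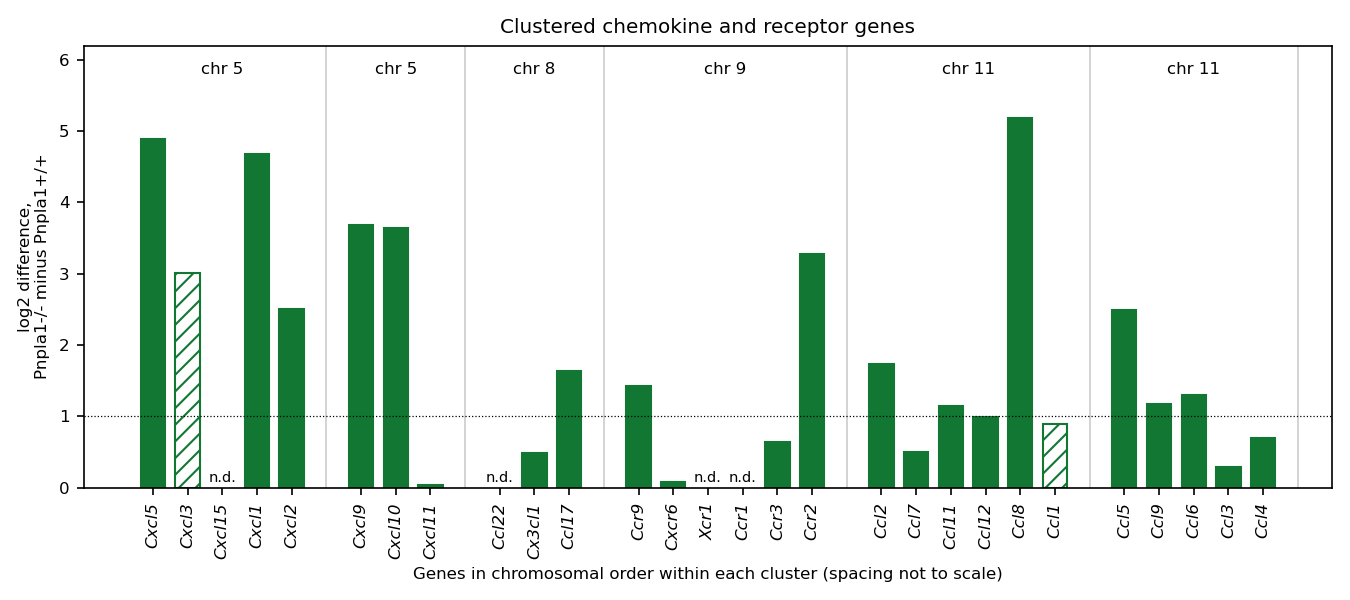
Difference in log2 intensity of clustered chemokine and receptor genes in chromosomal order, with hatched bars for bounds, n.d. for genes not well above background in either pool and a dotted line at 2-fold. On the left, all measured genes of the Cxcl1 to Cxcl5 cluster pass the line, while Cxcr6 (0.08) and Ccl3 (0.28) stay near 0 beside higher neighbours, as does the bright Cxcl11 probe (0.04), whose specificity was not tested.

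Genes of the pathway outside the name rule were described in the same way. Of the 8 relatives and atypical receptors, 2 were past 2-fold on the higher side, beside 6.7% of all genes. Another 2 were past it on the lower side, beside 3.04% of all genes, and the median was 0.50. *Darc* (*Ackr1*), which carries chemokines across venular endothelium, read 341 in *Pnpla1*+/+ and 894 in *Pnpla1*-/- skin, a difference of 1.67. *Ccr1l1*, a relative of *Ccr1*, read 17.0, not well above background, and 57.6, at least 2.93-fold higher. *Ccrl1* (*Ackr4*), which scavenges *Ccl19* and related ligands, read 2236 and 598, a difference of -1.62 or 3.07-fold lower. *Ccrl1* was thus lower in the pool in which *Ccl19* was higher. *Ppbp*, a *Cxcr2* ligand of platelets, read 539 and 164, a difference of -1.43 or 2.70-fold lower, opposite to the other ligands of *Cxcr2*, and *Pf4*, also of platelets, had a difference of -0.13.

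Of 19 signalling genes downstream of the receptors, 1 (5.26%) was higher by at least 2-fold, a share near the 6.7% of all genes. This was *Pik3r5*, a regulatory subunit of the PI3 kinase of leukocytes (83.2 and 212, a difference of 1.63). None was at least 2-fold lower, beside 3.04% of all genes, and the median was 0.37. *Dock2*, an activator of Rac in leukocytes, had a difference of 0.92 by its brighter probe (74.0 and 115). Its other probe read 22.7, not well above background, and 128, a difference of at least 2.70 on the log2 scale. Of 6 proteases that trim or shed chemokines, 3 were at least 2-fold higher, beside 6.7% of all genes. *Mmp8*, the collagenase of neutrophils, read 59.5 and 1210, a difference of 4.63, and *Mmp9* and *Mmp12*, not well above background in *Pnpla1*+/+ skin, were higher by at least 5.74-fold (*Mmp9*) and at least 2.65-fold (*Mmp12*). *Adam10*, *Adam17* and *Dpp4* lay within 2-fold.

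Cytokines that induce chemokines were mostly higher in *Pnpla1*-/- skin, 9 of 12 at least 2-fold, beside 6.7% of all genes, and their median was 2.80. *Il1f6* (*Il36a*), an epidermal cytokine of the IL-1 family, read 3308 in *Pnpla1*+/+ and 44734 in *Pnpla1*-/- skin, a difference of 4.04 or 16.4-fold higher. *Il17c*, an epithelial member of the IL-17 family, was not well above background in *Pnpla1*+/+ skin and was at least 20.4-fold higher. *Il1a* had a difference of 3.76, *Tslp* of 3.39, *Il1f9* (*Il36g*) of 2.93, *Il1b* of 2.84, *Tnf* of 2.75 and *Il13* of 1.34. *Ifng*, the inducer of *Cxcl9* and *Cxcl10*, was near background, with 17.1, not well above background, and 44.2, at least 2.24-fold higher. *Il17f* and *Il4* lay within 2-fold. *Il17a* read 20.6, not well above background, and 28.5, at least 1.45-fold higher.

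Markers of some leukocytes were higher along with the chemokine genes, while those of mast cells were not and those of T cells pointed both ways. What part any of these cells had in the chemokine values was not tested. All 3 pan-leukocyte markers were at least 2-fold higher, with summed levels of 3.57 in *Pnpla1*+/+ and 8.42 in *Pnpla1*-/- skin in units of the 75th percentile. *Ptprc*, which encodes CD45, read 232 and 542, a difference of 1.51, and the brightest of the 3, *Coro1a*, had 1.24.

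Of 12 neutrophil markers, 7 were at least 2-fold higher and 5 lay within 2-fold, with a median of 2.85. Their summed levels were 50.7 and 55.5, of which *Csf3r* alone gave 42.6 and 44.0 and *Itgam* 5.62 and 5.52, so that the sums mainly describe those bright probes, whose specificity was not tested. *Mmp8* (4.63), *Mpo* (4.35), *Retnlg* (3.48), *Ngp* (3.36), *Ltf* (3.33), *Fpr2* (3.26) and *Fpr1* (2.45) were higher. *Ly6g* read 524 and 576, a difference of 0.42, *Csf3r* had 0.04, *Elane* 0.05 and *Camp* 0.18. The probes of *Itgam* disagreed. The brightest, which stands for the gene in these counts, read 11846 and 9569, a difference of -0.03, while the others read 119 and 701, a difference of 2.84, and 46.2 and 83.4, a difference of 1.14. All 12 genes were well above background on both arrays, in contrast to *Cxcr2*.

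Of 7 monocyte and macrophage markers, 4 were at least 2-fold higher, with summed levels of 12.8 and 23.0 and a median of 1.02. *Lyz2* had the largest difference (2.35) and the brightest, *Csf1r*, had 0.67. Of 6 Langerhans and dendritic cell markers, 3 were at least 2-fold higher, *Itgax* (2.82), *Cd74* (2.46) and the brightest, *H2-Ab1* (2.43), and the summed levels were 2.14 and 11.4. *Cd207*, which encodes langerin, the defining protein of Langerhans cells, was not well above background in either pool.

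T, NK and B cell markers differed in their values. None of the 7 T cell markers had a difference or a bound of 2-fold or more, with a median of -0.27, summed levels of 1.48 and 1.75 and *Cd4* the brightest. *Cd8a* read 20.4, not well above background, and 32.9, at least 1.67-fold higher, a bound that sets no upper limit. The probes of *Cd4* disagreed, with 1857 and 2020, a difference of 0.40, for the brighter and 71.9 and 37.8, a difference of -0.65, for the other, and *Cd3e* had a difference of 0.13. Of the NK cell markers *Gzma* was higher (2.65), while *Ncr1* and *Klrb1c* were not well above background in either pool, and the summed levels were 0.0815 and 0.489. Of the 4 B cell markers 1 was at least 2-fold higher, the brightest, *Cd79b* (1.35), *Ms4a1* was not well above background in either pool, and the summed levels were 0.209 and 0.436.

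Of the 4 eosinophil and basophil markers, the basophil protease *Mcpt8*, the brightest, was higher (3.68). *Epx*, of eosinophils, was measured only in *Pnpla1*+/+ skin and was at least 2.28-fold lower. *Siglec5* pointed the other way, with 42.8 and 60.0, a difference of 0.77 that lay within 2-fold. *Prg2* was not well above background in either pool, and the summed levels were 0.0718 and 0.314. All 5 mast cell markers had negative differences, from -0.88 to -0.43, within 2-fold, with summed levels of 55.4 and 38.5 and *Cpa3* the brightest. Of the 3 platelet markers, *Gp9* (1.53) was at least 2-fold higher, with summed levels of 0.131 and 0.229 and *Itga2b* the brightest.

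Markers of resident structures lay near 0, apart from basal keratins. The medians were 0.28 for 4 blood endothelial markers, 0.09 for the 2 lymphatic markers that were measured, -0.15 for 5 fibroblast markers, 0.10 for 3 suprabasal keratinocyte markers and 0.06 for 4 skeletal muscle markers, and none of these genes reached 2-fold. Of the basal keratins, *Krt14* had a difference of 1.35, *Krt15* of -1.67 and *Krt5* of 0.22.

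**Figure D4:**
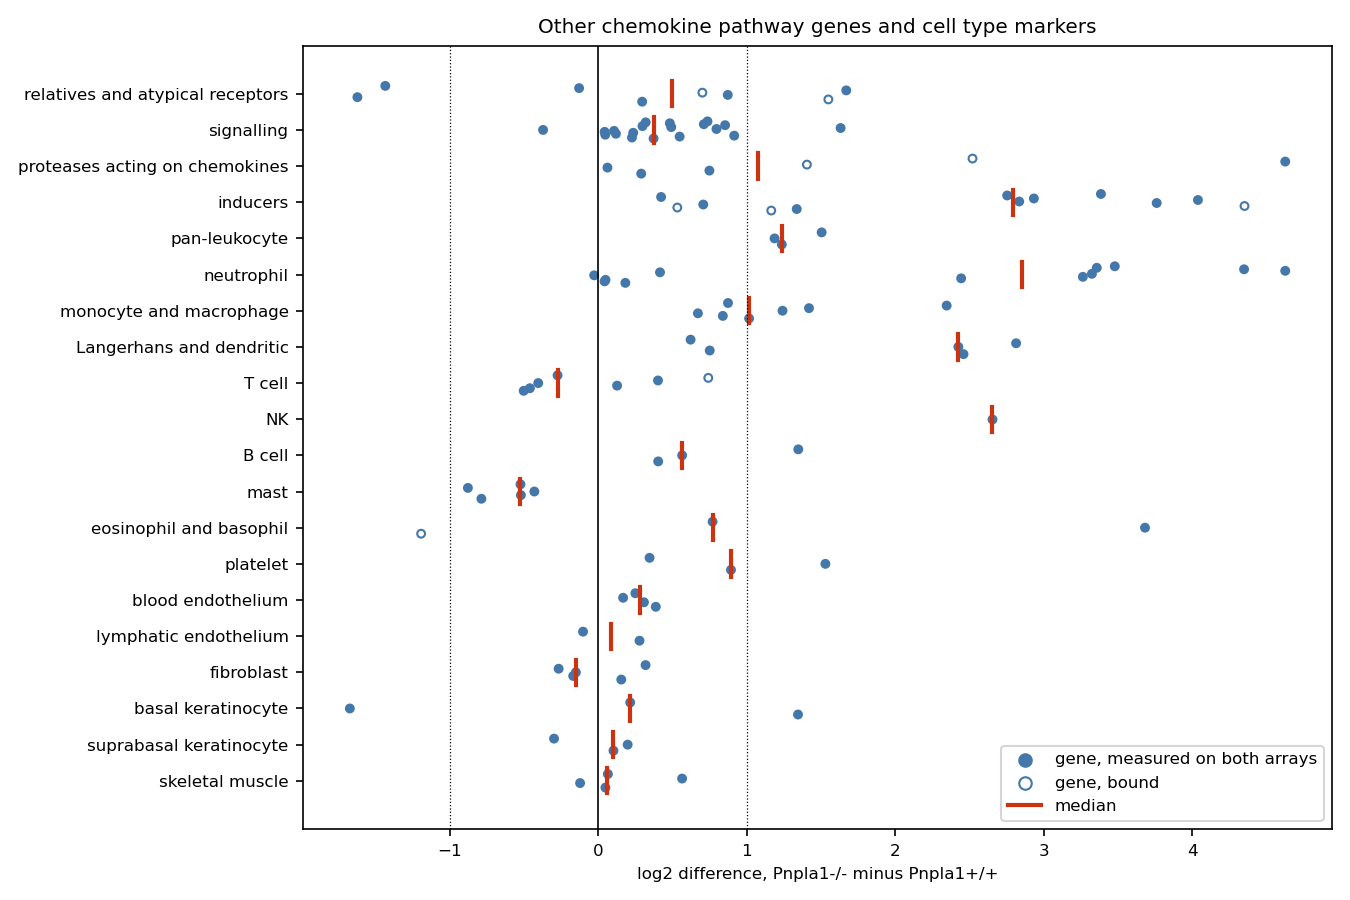
Difference in log2 intensity, Pnpla1-/- minus Pnpla1+/+, of other chemokine pathway genes (top 4 rows) and of cell type markers, with open circles for bounds and red lines for medians. The inducers (median 2.80) lie to the right, the neutrophil markers run from -0.03 to 4.63, and the T cell (-0.27) and mast cell (-0.52) medians lie left of 0.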

How the data were processed

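Skin RNA of P0 mice was measured on 2 Agilent 4x44K mouse arrays, 1 per genotype, and each array was assigned to its genotype by its labels. The authors scanned the arrays and extracted intensities with Agilent Feature Extraction 11.5.1.1, and the deposited intensity of a spot is background-subtracted and detrended but not scaled between arrays. Mean pixel intensity, local background and flags per spot were deposited too. The authors normalized by a global step whose statistic is not stated. Their deposited table holds a linear ratio, each intensity over a constant of its array (2109 in *Pnpla1*+/+, 1734 in *Pnpla1*-/-), with column medians of 0.0956 and 0.102, and it was used as an alternative.

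Here, the log2 of each intensity was taken after division by the 75th percentile of the 43020 non-control spots of the array (Python 3.11.15, numpy 2.4.6, pandas 2.3.3). Outlier-flagged spots (138 and 82, none of a chemokine gene) were dropped and repeated spots averaged. The probe with the highest log2 intensity on average stood for its gene. Probe names and positions (mm9) are those of the scanner files, and promoters are from RefSeq (GRCm38.p6), matched by symbol. Every gene was given that was at least 2-fold different, with its receptors or ligands and the constitutive skin chemokines, except that 1 chemokine or receptor gene is counted but not reported by name here. The genes, lists and motifs were chosen with earlier results of these data known, and the adhesion genes after the chemokine values were seen. No test was made with 1 array per genotype, the number of arrays limits the precision, and both arrays lay on 1 slide, which leaves no slide term to fit. Alternatives were other scalings, normexp (offset 50), quantile and cyclic loess normalization in limma 3.58.1 under R 4.3.3, the deposited ratios, other handling of probes, dim spots and outlier flags, and other thresholds.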

Additional observations from a re-analysis of the deposited data

How the results depend on the processing

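Of the 27 chemokine and receptor genes past 2-fold, 18 stayed past it under all 12 alternatives other than thresholds (16 higher, and *Ccl24* and *Cx3cr1*), 9 dropped below it under at least 1 (*Ccl6*, *Ccl9*, *Ccl11*, *Ccl17*, *Ccl27a*, *Ccr8*, *Ccr9*, *Cxcl13* and *Cxcr1*), and none changed direction. Alternatives that had to leave out a gene, such as a bound where both arrays were required, gave no value for it. Of the 18 genes with a difference or a bound under 2-fold, 6 changed direction (*Ccl3*, *Ccl25*, *Ccr10*, *Cxcl11*, *Cxcl12* and *Cxcr6*). *Ccl1*, *Ccr6* and *Xcl1*, which are among these 18 and have only bounds, passed 2-fold with no filter on dim probes. Also among the 18, *Ccl12* passed it with cyclic loess (1.09) and *Cxcr7* with E1A centring (-1.12). *Cxcl14* passed it with no scaling and with E1A centring (-1.23). The 16 higher ligands stayed within 1.5 times that count under all 14 alternatives. The 2 lower ligands became 1 with cyclic loess and 1 with the mean over probes, and 0 at 3-fold. The 8 higher receptors became 5 with probes above background on both arrays only, where bounds are left out, and 5 at 3-fold, and the 1 lower receptor became 2 with E1A centring and 2 at 1.5-fold. The median of the ligands (1.18) was 1.11 with scaling to the median, 0.90 with no scaling, 1.25 with cyclic loess, 0.75 with E1A centring and 1.02 with normexp. That of the receptors (0.94) was, in the same order, 0.87, 0.65, 0.83, 0.51 and 0.63, and it was 0.76 with quantile normalization, 0.84 with the mean over probes, 0.65 with probes above background on both arrays only and 1.05 with no filter. That of the *Cxcr2* ligands (3.85) was 3.78, 3.57, 3.78, 3.42 and 2.42 in that order, 3.67 with quantile normalization and 4.68 with either change of the filter. Over all genes, the 1501 higher genes became 999 with no scaling, 828 with E1A centring, 960 with normexp, 3047 with no filter, 3097 at 1.5-fold and 684 at 3-fold, and the 682 lower genes 1425, 2180, 321, 1107, 2095 and 229 in the same order. The share of higher genes among all genes past 2-fold, 68.8%, was 41.2% with no scaling, 27.5% with E1A centring and 58.7% with quantile normalization, and that among the chemokine and receptor genes, 88.9%, was 83.3%, 78.3% and 88.5%. The median of all genes shifted by -0.28 with no scaling and by -0.44 with E1A centring, which rests on 8 spike-in probes whose differences ran from 0.30 to 0.52. Where the construction of an alternative does not show it, the cause was not tested. Signal near background limits *Cxcl3*, *Cxcr1*, *Cxcr2*, *Ccr6*, *Ccl1* and *Xcl1*, which have bounds. No paired analysis was possible because each genotype has 1 array.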

Other observations

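Genes by which leukocytes attach to vessel walls before they respond to chemokines were looked at after the chemokine values had been seen. Of 11 such genes, 8 were at least 2-fold higher in *Pnpla1*-/- skin, beside 6.7% of all genes, and the median was 1.80. *Sele*, the selectin of activated endothelium, read 35.0 in *Pnpla1*+/+ and 270 in *Pnpla1*-/- skin, a difference of 3.23, and *Selp*, of platelets and endothelium, had 2.49. The integrin genes *Itgal* (2.31) and *Itgb2* (1.80) and their ligand *Icam1* (1.19), as well as *Vcam1* (1.30), *Madcam1* (1.95) and *Selplg* (1.91), were higher too. *Icam2* (0.29), *Pecam1* (0.17) and *Itga4* (-0.13) lay within 2-fold. Other probes of *Itgal* gave 1.61 and 0.99, and the other probe of *Madcam1* gave 0.40.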
